A study of Mus musculus with 12 samples.

Results

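Uox and 5 further enzymes that take purine and uridine nucleosides apart (Xdh, Pnp, Ada, Gda and Upp1) were followed across 12 RNA-seq libraries of mouse ear skin. The members were listed by symbol, and each symbol matched 1 Ensembl gene, so that 6 of the 55416 gene identifiers in each table are described, and all 6 passed the filter on low counts that left 17130 genes for testing. They were chosen by their expected counts across the 4 groups, with the rise of Uox from near 0 under imiquimod as the leading value, so the difference between imiquimod skin and UTX/Veh skin is given here as a description without a test, and tests are given for the agonist comparisons. The IMQ/Veh and agonist libraries also entered that choice, and each adjusted p of a member carries this limit. C57BL/6 mice of 8 to 12 weeks contributed skin at day 6 in 4 groups of 3 libraries. UTX/Veh skin carries a label that the sources do not spell out, with DMSO as the injected vehicle. IMQ/Veh skin received 20.8 mg of Aldara cream daily, which holds 5% of the Toll-like receptor agonist imiquimod and provokes a psoriasis-like inflammation, with DMSO injections. IMQ/GW3965 and IMQ/Troglitazone skin received the same cream and, from day 3, daily intraperitoneal injections of 20 mg/kg of GW3965, which activates liver X receptors (LXR), or 150 mg/kg of troglitazone, an agonist of PPARγ. The libraries held 18242074 to 25641602 expected counts. The labels number the replicates but do not say that each is a separate animal, so any p-value here reflects library-to-library spread that may be technical. The skin markers Krt5, Krt14, Krt1, Krt10, Lor, Flg, Col1a1 and Col3a1 were present in every library, their summed level running from 22687 to 76574 CPM (library-size-scaled counts, with edgeR's TMM factors).

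Purine breakdown runs in a line. Adenosine deaminase (Ada) turns adenosine into inosine, purine nucleoside phosphorylase (Pnp) splits inosine and guanosine into the bases hypoxanthine and guanine, and guanine deaminase (Gda) turns guanine into xanthine. Xanthine dehydrogenase (Xdh), a molybdenum enzyme that can also run as an oxidase and release hydrogen peroxide, makes urate from hypoxanthine and xanthine. Urate oxidase (Uox), a peroxisomal enzyme best known from liver and lost in humans, then opens urate to 5-hydroxyisourate, which the hydrolase Urah, the decarboxylase Urad and the allantoicase Allc carry further. Upp1, uridine phosphorylase, does for uridine what Pnp does for inosine.

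The stretches just before the start sites of the members with the largest differences between IMQ/Veh and UTX/Veh skin (Uox, Upp1 and Ada) are shown first, since these are the genes whose levels moved most. They come from RefSeq windows (GRCm38.p6) of 250 bases before to 50 bases after a start, which were found for 5 of the 6 members in 7 windows; Xdh was not matched. Each was shortened to the bases before the first transcript start that GENCODE places in the window. Capitals mark a match to one of 7 motifs searched on both strands of the whole 300-base window.
Uox, chr3:146596899-146597076, plus strand: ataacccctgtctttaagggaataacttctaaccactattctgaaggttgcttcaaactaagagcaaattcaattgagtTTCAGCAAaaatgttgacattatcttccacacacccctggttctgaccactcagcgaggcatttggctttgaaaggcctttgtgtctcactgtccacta
Upp1, chr11:9117853-9118102, plus strand: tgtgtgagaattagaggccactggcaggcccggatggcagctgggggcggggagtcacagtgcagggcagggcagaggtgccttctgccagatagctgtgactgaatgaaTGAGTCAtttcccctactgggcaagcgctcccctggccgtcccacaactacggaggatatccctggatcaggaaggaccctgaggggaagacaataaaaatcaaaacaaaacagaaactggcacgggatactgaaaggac
Ada, chr2:163750240-163750489, minus strand: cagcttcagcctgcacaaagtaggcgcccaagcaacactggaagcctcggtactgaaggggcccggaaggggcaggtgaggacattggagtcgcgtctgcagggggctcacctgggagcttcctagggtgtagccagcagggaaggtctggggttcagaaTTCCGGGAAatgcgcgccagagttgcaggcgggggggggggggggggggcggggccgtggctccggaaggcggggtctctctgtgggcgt
The Uox stretch ends where the first of 4 GENCODE transcript starts in the window lies. Its capitals are a match to TTGCNNAA, a C/EBP-type motif that was in 10.8% of 32851 RefSeq promoter windows of the same length; it reads TTCAGCAA, the motif on the opposite strand. The Upp1 stretch holds TGAGTCA, a match to the AP-1-type motif TGANTCA, which was in 7.81% of all windows. The Ada stretch holds TTCCGGGAA, a match to the STAT-type motif TTCNNNGAA, found in 8.30% of all windows. The Pnp and Gda windows each held the C/EBP-type motif too (TTGCGCAA and TTATGCAA). The NF-kB-type motif GGGANTTCC (1.68% of all windows) and the named PPAR and LXR direct repeats (0.0396% and 0.0152%) matched none of the 7 member windows, and the nuclear receptor core AGGTCA (16.3%), matched 1 further Upp1 window on the opposite strand. A match is a run of letters and not a measured site, and a missing match says only that these letters are not in the window.

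Uox transcripts were at the edge of detection in UTX/Veh skin and among the better expressed enzymes of the route in IMQ/Veh skin. The 3 UTX/Veh libraries held 6, 0 and 2 expected counts (0.236, 0 and 0.0854 CPM), and the 3 IMQ/Veh libraries held 2432, 4208 and 1775 (126, 169 and 93.1 CPM). No IMQ/Veh library came near the UTX/Veh level. Over the summed counts (8 against 8415) the depth-adjusted ratio was 1211-fold, with an exact 95% interval of 614 to 2806 that covers counting error only. The denominator rests on UTX/Veh replicate 1: without that library the ratio was 3151-fold, with an interval of 872 to 26023. The gene lies at chr3:146570426-146632305 on the plus strand (GENCODE M21, GRCm38), and all 6 of its annotated transcripts entered the counting. Among them are retained-intron forms of 448 and 2364 bases, so the counts need not come from coding transcripts alone. Dnase2b, a protein-coding gene on the opposite strand inside the Uox interval, held 0 to 3 counts in every library. The nearest protein-coding neighbours were 4930503B20Rik, with at most 7.65 counts, and Rpf1, a ribosome biogenesis factor, which rose by 0.81 ± 0.12 on the log2 scale (SE; adjusted p = 0.00014, edgeR's quasi-likelihood test) from 17.7 to 31.2 CPM.

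**Figure D1:**
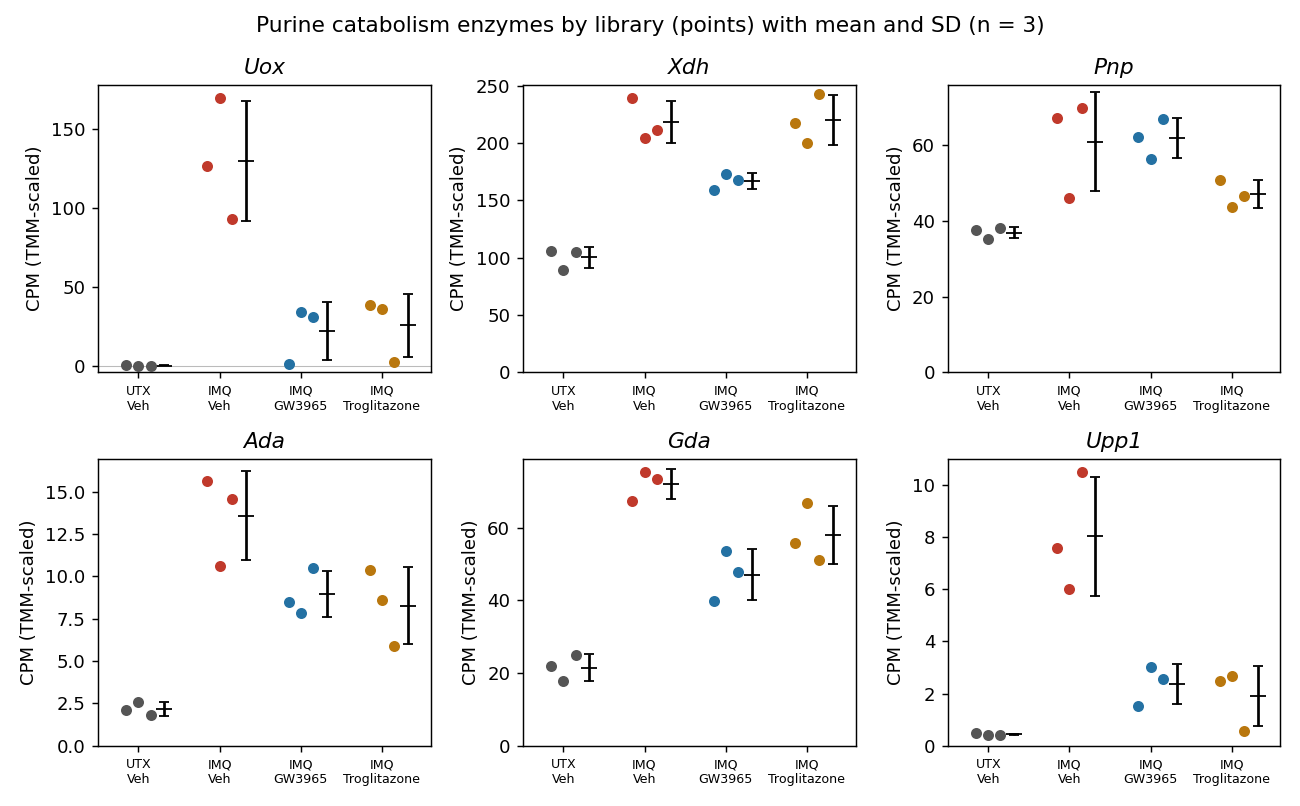
Level of each enzyme in CPM (TMM-scaled, linear axis from 0) in each of the 12 libraries, with the group mean and SD beside the 3 points. Uox stands at most at 0.236 CPM in UTX/Veh skin and from 93.1 to 169 CPM in IMQ/Veh skin, and the agonist groups hold 1 low library each.

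In both agonist groups Uox was lower than in every IMQ/Veh library, and in both groups 1 library was far below its partners. The IMQ/GW3965 libraries held 24, 657 and 452 counts (1.08, 34.1 and 30.5 CPM). The IMQ/Troglitazone libraries held 906, 740 and 55 counts (38.3, 35.9 and 2.26 CPM). Replicate 1 of IMQ/GW3965 and replicate 3 of IMQ/Troglitazone were thus nearer to UTX/Veh skin than to the other agonist libraries on the CPM scale, but all 6 agonist libraries stayed above the highest UTX/Veh library. The fitted difference from IMQ/Veh was -2.57 ± 0.95 on the log2 scale under GW3965 (SE; 95% interval -4.65 to -0.49) and did not pass the threshold (adjusted p = 0.116, edgeR). Under troglitazone it was -2.35 ± 0.94 (95% interval -4.40 to -0.30; adjusted p = 0.129, edgeR). Neither passed in any of 22 alternative settings, where the adjusted p ran from 0.0538 to 0.224 under GW3965 and from 0.0586 to 0.271 under troglitazone. Without the low library the differences were -2.0 (adjusted p = 0.224, without IMQ/GW3965 replicate 1) and -1.80 (adjusted p = 0.271, without IMQ/Troglitazone replicate 3), again by edgeR. The agonists against each other differed by 0.23 ± 0.92 (95% interval -1.79 to 2.24; adjusted p = 0.940, edgeR), an interval wide enough to hold a difference of several fold either way.

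Across the 4 groups Uox moved with summed markers listed for neutrophils and for activated keratinocytes. These sums do not tell which cells held the transcripts. The summed level of 13 neutrophil markers (among them Ly6g, Cxcr2, S100a8 and S100a9) was 19.6 to 36.2 CPM in UTX/Veh, 5760 to 10101 in IMQ/Veh, 275 to 2025 in IMQ/GW3965 and 386 to 1968 in IMQ/Troglitazone. In the imiquimod libraries S100a8 and S100a9 made up most of this sum, which therefore follows them more than the other markers. They had 3359, 3542 and 1917 CPM (S100a8) and 6091, 6440 and 3721 CPM (S100a9) in IMQ/Veh. Cxcr2 differed less, at 41.9 to 53.6 CPM in IMQ/Veh, 18.1 to 39.1 in IMQ/GW3965 and 23.6 to 37.2 in IMQ/Troglitazone. IMQ/Veh replicate 3, the lowest of its group for Uox, was also its lowest for the summed neutrophil markers. This order of the sum is that of S100a8 and S100a9, and a sum without them was not taken. The lowest neutrophil sums of the agonist groups were in IMQ/GW3965 replicate 1 and IMQ/Troglitazone replicate 3. Of these markers 10 were tested, of which 9 rose in IMQ/Veh against UTX/Veh skin, where 33% of all tested genes rose. In each agonist comparison with IMQ/Veh 4 fell, where 2.88% (GW3965) and 4.65% (troglitazone) of all tested genes fell. Fpr1 and Ngp had no count in UTX/Veh skin. The summed level of 8 activated keratinocyte markers (such as Krt6b, Krt16 and Sprr2b) was 213 to 339 CPM in UTX/Veh, 26039 to 35614 in IMQ/Veh, 7621 to 12251 in IMQ/GW3965 and 4781 to 13182 in IMQ/Troglitazone. All 8 rose in IMQ/Veh skin and 5 fell in each agonist comparison, and the lowest sums of the agonist groups were again in IMQ/GW3965 replicate 1 and IMQ/Troglitazone replicate 3. Within IMQ/Veh skin the order differed: replicate 2, the highest for Uox (169 CPM), had the lowest keratinocyte sum (26039 CPM), and replicate 1 (126 CPM of Uox) the highest (35614 CPM). The part of these cells in the Uox result was not tested, and in bulk skin fewer cells of a type and less RNA per cell cannot be told apart. Markers of hepatocytes, the cells best known for Uox, were also read: albumin (Alb) did not exceed 1.03 TPM (a level per transcript length) in any library, Apoa1 0.25 and Ttr 0.49. Of the 14 hepatocyte markers only 3 were high enough to test, of which 1 rose and 1 fell in IMQ/Veh skin. Cyp2e1, which skin can also express, was the exception at up to 43.6 TPM, in IMQ/Troglitazone, and was at 0.09 to 6.28 TPM in IMQ/Veh skin.

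**Figure D2:**
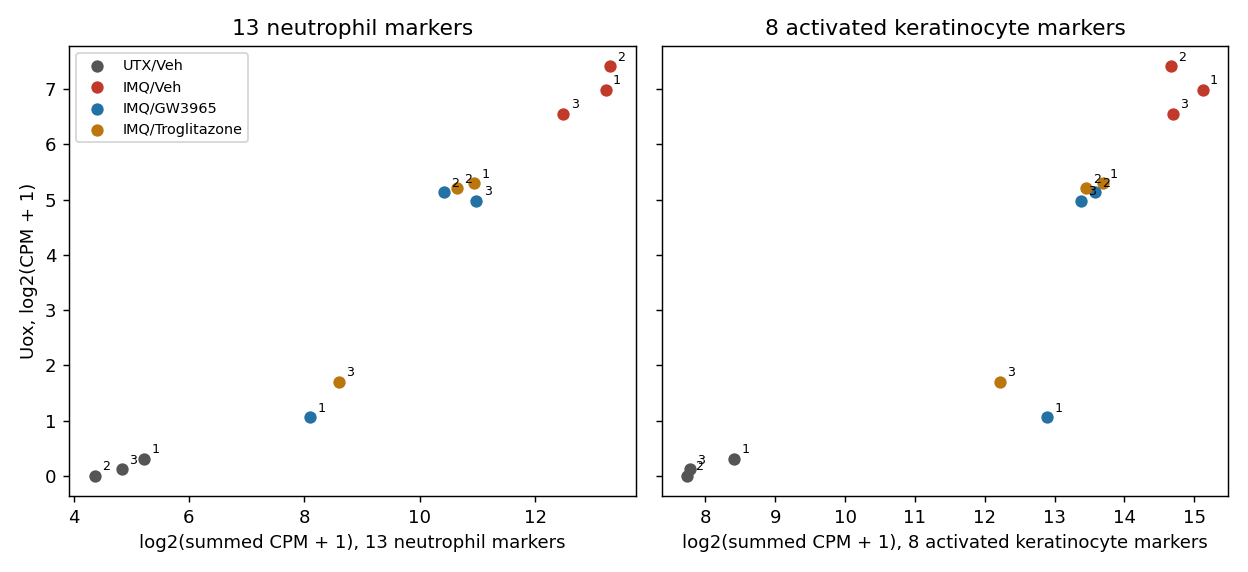
Uox as log2(CPM + 1) against the summed level of 13 neutrophil markers (left) and 8 activated keratinocyte markers (right), as log2(summed CPM + 1), with 1 point per library numbered by replicate. Replicate 1 of IMQ/GW3965 and replicate 3 of IMQ/Troglitazone lie low on both axes of the left panel, with neutrophil sums of 275 and 386 CPM. S100a8 and S100a9 make up most of the neutrophil sum in the imiquimod libraries.

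The genes whose log2 CPM (prior count 2) followed Uox most closely over the 12 libraries were Sprr2i (Pearson r = 0.994), Ckap4 (r = 0.984), Sprr2j-ps (r = 0.984), Sprr2f (r = 0.984) and Hif1a (r = 0.983). These r are a description over 12 libraries that share their treatment groups. Within the 9 imiquimod libraries they were 0.993 for Sprr2i, 0.965 for Ckap4, 0.952 for Sprr2j-ps, 0.968 for Sprr2f and 0.951 for Hif1a. Sprr2i and Sprr2f encode small proline-rich proteins of the cornified envelope, Ckap4 a membrane protein of the endoplasmic reticulum and Hif1a an oxygen-regulated transcription factor. Sprr2i had 0.502 to 1.02 CPM in UTX/Veh, 194 to 303 in IMQ/Veh, 7.19, 89.9 and 67.9 in IMQ/GW3965, and 76.5, 73.7 and 11 in IMQ/Troglitazone, with the same low libraries as Uox. The Sprr2 genes are near-identical copies, so the division of reads among them is uncertain.

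Xdh, the enzyme that makes the urate Uox consumes, was present in all skin and was lower under GW3965 than under troglitazone in every library. It had 106, 89.5 and 105 CPM in UTX/Veh skin and 239, 204 and 211 CPM in IMQ/Veh skin, a ratio of group means of 2.18. The IMQ/GW3965 libraries had 159, 173 and 168 CPM, all between those groups. The IMQ/Troglitazone libraries had 217, 200 and 243 CPM, spanning the range of IMQ/Veh. Against IMQ/Veh, Xdh fell under GW3965 by 0.39 on the log2 scale (SE 0.10; adjusted p = 0.0414, edgeR), and under troglitazone it differed by 0.01 ± 0.10 (95% interval -0.20 to 0.23; adjusted p = 0.944, edgeR). The GW3965 call was lost in 12 of 22 alternatives, among them the lane covariate (adjusted p = 0.0768), a fit of the 2 groups alone (0.108), no filter on low counts (0.0515) and the omission of any 1 of 8 libraries (UTX/Veh replicates 1 and 3, IMQ/Veh replicates 1 and 2, all 3 of IMQ/GW3965 or IMQ/Troglitazone replicate 1; highest 0.158, without IMQ/GW3965 replicate 1), while the difference stayed between -0.43 and -0.32. The direct comparison of troglitazone with GW3965 gave 0.40 ± 0.10 (95% interval 0.18 to 0.62), with the groups not overlapping and an adjusted p of 0.0641 by edgeR. It passed with DESeq2 and without IMQ/Veh replicate 3 (adjusted p ranging from 0.00376 to 0.203 over the alternatives).

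Gda, which feeds guanine into the xanthine pool, was highest in IMQ/Veh skin. Its levels were 21.9, 17.8 and 24.9 CPM in UTX/Veh and 67.3, 75.2 and 73.3 CPM in IMQ/Veh, a ratio of 3.34. They were 39.8, 53.6 and 47.9 CPM in IMQ/GW3965 and 55.7, 66.7 and 51.2 CPM in IMQ/Troglitazone, so that both agonist groups lay below IMQ/Veh without overlap in CPM. Gda fell under GW3965 by 0.61 (log2; SE 0.14; adjusted p = 0.0316, edgeR), whereas the difference under troglitazone was -0.31 ± 0.14 (adjusted p = 0.178, edgeR). The GW3965 call was lost in 7 of 22 alternatives: the fit of the 2 groups alone (adjusted p = 0.0797) and the omission of UTX/Veh replicate 1, IMQ/Veh replicate 1 or 2, IMQ/GW3965 replicate 1 or 3 or IMQ/Troglitazone replicate 1 (up to 0.137, without IMQ/GW3965 replicate 1). The agonists differed from each other by 0.30 ± 0.14 (95% interval -0.02 to 0.61; adjusted p = 0.340, edgeR). In TPM the troglitazone libraries (14.4 to 19.1) overlapped IMQ/Veh (14.7 to 18.02).

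Ada was scarce in UTX/Veh skin, with 2.08, 2.59 and 1.79 CPM, and had 15.6, 10.6 and 14.5 CPM in IMQ/Veh skin, a ratio of 6.30. It had 8.50, 7.85 and 10.5 CPM in IMQ/GW3965 and 10.4, 8.58 and 5.87 CPM in IMQ/Troglitazone. Each agonist library lay below the lowest IMQ/Veh library, in the nearest case by 10.5 against 10.6 CPM. The differences from IMQ/Veh were -0.60 ± 0.23 (log2, SE) under GW3965 (adjusted p = 0.119, edgeR) and -0.71 ± 0.23 under troglitazone (adjusted p = 0.0671, edgeR), and neither passed. With troglitazone the gene passed in 3 of 22 alternatives, with DESeq2, with limma-voom and without IMQ/Veh replicate 2, over an adjusted p range of 0.0288 to 0.229.

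Pnp had the smallest ratio of the 6 between IMQ/Veh and UTX/Veh skin. It had 37.7, 35.2 and 38.0 CPM in UTX/Veh skin and 67.2, 46.1 and 69.9 CPM in IMQ/Veh skin, a ratio of 1.65. In TPM this ratio was 1.11, and the groups overlapped, with 36.1 to 43.7 TPM in UTX/Veh and 35.8 to 53.0 TPM in IMQ/Veh. The rise of Pnp thus depends on the scale. Its mean estimated gene length was close in both groups, at 1830 and 1857 bases, and TPM also scales libraries without the TMM factors. For each of the 6 members the ratio was smaller in TPM than in CPM, as for Urah (5.31 against 7.46). The sizes of these ratios therefore depend on the scaling, and the part of length and scaling was not tested. Pnp had 62.2, 56.4 and 67.0 CPM in IMQ/GW3965 and 51.0, 43.6 and 46.7 CPM in IMQ/Troglitazone. The difference from IMQ/Veh was 0.02 ± 0.14 under GW3965 (95% interval -0.28 to 0.32; adjusted p = 0.951, edgeR) and -0.37 ± 0.14 under troglitazone (adjusted p = 0.109, edgeR). The latter passed in 1 of 22 alternatives, without IMQ/Veh replicate 2 (adjusted p = 0.0149). The near-identical gene Pnp2 lies inside the annotated Pnp interval on the same strand and held 13.7 to 35.9 counts per library. The split of reads between Pnp and Pnp2 is uncertain.

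Upp1, on the uridine side, was the 1 member called lower under both agonists. Both calls use the same 3 IMQ/Veh libraries, which also entered the choice of members. It held 12, 10 and 10 counts in UTX/Veh skin (0.472, 0.418 and 0.427 CPM) and 146, 149 and 200 in IMQ/Veh skin (7.57, 5.99 and 10.5 CPM), a ratio of 18.3. IMQ/GW3965 libraries held 34, 58 and 38 counts (1.54, 3.01 and 2.57 CPM), and IMQ/Troglitazone libraries 59, 55 and 14 (2.50, 2.67 and 0.575 CPM). IMQ/Troglitazone replicate 3, the lowest of its group for Uox, was the lowest agonist library for Upp1. Upp1 fell by 1.76 on the log2 scale under GW3965 (SE 0.43; adjusted p = 0.0366, edgeR) and by 2.07 under troglitazone (SE 0.44; adjusted p = 0.0187, edgeR), higher in 3 of 3 IMQ/Veh libraries than in any agonist library in each case. The GW3965 call was lost in 11 of 22 alternatives: with the lane covariate (adjusted p = 0.0601), with lane and replicate number together (0.0711), with the 2 groups alone (0.0706) and on omission of any UTX/Veh or IMQ/GW3965 library, IMQ/Veh replicate 1 or IMQ/Troglitazone replicate 1 (up to 0.154, without IMQ/GW3965 replicate 1). The troglitazone call was lost in 2, with the 2 groups alone (0.120) and without IMQ/Veh replicate 1 (0.0610). The agonists differed from each other by -0.31 ± 0.45 (95% interval -1.30 to 0.68; adjusted p = 0.794, edgeR). Upp2, the second uridine phosphorylase gene, held 12 to 46 counts per library and did not pass in any comparison.

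Counted together, 3 of 6 members (Xdh, Gda and Upp1) fell under GW3965, where 2.88% of all tested genes fell and 6.59% were called in either direction. Under troglitazone 1 of 6 fell, where 4.65% of all tested genes fell and 9.34% were called in either direction. The 6 members' median difference was -0.61 under GW3965 and -0.54 under troglitazone (log2), where the median over all tested genes was -0.01 and -0.02. Both comparisons use the same 3 IMQ/Veh libraries, so they are not separate evidence. The members were also chosen on counts that include these libraries, and genes picked as high there tend to read lower in any comparison with them. The counts, medians and overlaps against IMQ/Veh are therefore partly fixed by the choice of members. Groups did not overlap, with the agonist lower, for 5 of 6 members under GW3965 (12% of all tested genes, and 12.7% with the agonist higher) and for 4 of 6 under troglitazone (14%, and 11.8% higher). Between troglitazone and GW3965 edgeR called 0 of 6 members, where 1.86% of all tested genes were called (0.782% higher and 1.08% lower with troglitazone). Xdh did not overlap with troglitazone higher (11.2% of all tested genes) and Pnp with troglitazone lower (14.1%). Of the members, 2 (Xdh and Pnp) had an unadjusted edgeR p under 0.05, as had 2745 of all 17130 tested genes. DESeq2 called 1 member, among 912 genes in all, and limma-voom 0, among 386. In IMQ/Veh against UTX/Veh skin the groups did not overlap for all 6, the imiquimod side higher, where 34.7% of all tested genes did so, 32.1% lay the other way and 61.9% were called by edgeR, a count that the choice of members partly fixes. The counts rest on single libraries: on leaving out 1 of the 12 they ran from 0 to 3 under GW3965 (0 without UTX/Veh replicate 1, IMQ/Veh replicate 1, IMQ/GW3965 replicate 1 or 3 or IMQ/Troglitazone replicate 1) and from 0 to 3 under troglitazone (0 without IMQ/Veh replicate 1, 3 without IMQ/Veh replicate 2).

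**Figure D3:**
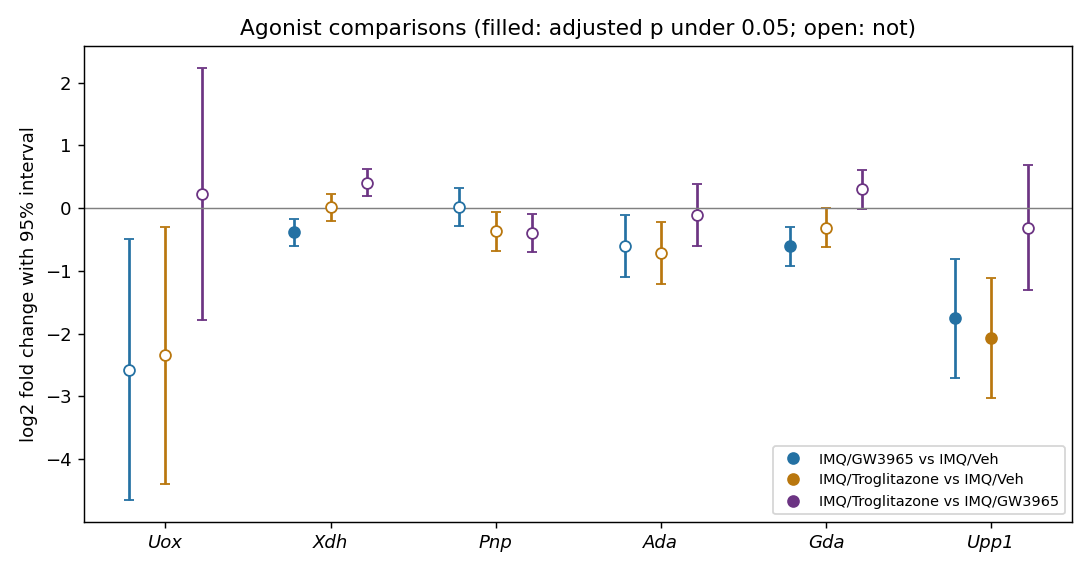
Log2 fold change of the 6 enzymes in the 3 comparisons among imiquimod groups, with 95% intervals from the edgeR fit; filled points passed an adjusted p of 0.05. Uox has the widest intervals, from -4.65 to -0.49 under GW3965, and Upp1 is filled in both comparisons with IMQ/Veh.

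Ordered by level per length, Uox went from the last of the 6 enzymes to the second. In UTX/Veh skin Xdh led with 46.4 ± 5.07 TPM (SD, n = 3), Pnp had 40.0 ± 3.82, Gda 7.35 ± 1.31, Ada 2.55 ± 0.418, Upp1 1.18 ± 0.124 and Uox 0.247 ± 0.273. In IMQ/Veh skin Xdh had 80.3 ± 6.27 TPM, Uox 74.8 ± 17.7, Pnp 44.4 ± 8.59, Gda 16.7 ± 1.79, Upp1 12.8 ± 3.28 and Ada 11.3 ± 1.88 (SD, n = 3). The neighbours Xdh and Uox overlapped there, as did Gda with Upp1 and Upp1 with Ada. In IMQ/GW3965 skin Uox had 13.8 ± 11.2 TPM and in IMQ/Troglitazone skin 24.1 ± 18.5 TPM (SD, n = 3), below Xdh (60.9 ± 8.06 and 80.4 ± 6.35) and Pnp (43.9 ± 4.75 and 40.4 ± 2.77) in each.

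The enzyme that follows Uox was also abundant, and those after it were not detected. Urah, 5-hydroxyisourate hydrolase, had 277, 224 and 183 TPM in UTX/Veh skin and 1179, 1360 and 1090 TPM in IMQ/Veh skin. It rose by 2.90 ± 0.26 on the log2 scale (SE; adjusted p = 4.51e-06, edgeR) and stayed called in all 22 alternatives. Its level was 644, 990 and 840 TPM in IMQ/GW3965 and 1003, 1012 and 601 TPM in IMQ/Troglitazone, with log2 differences from IMQ/Veh of -0.49 ± 0.24 (adjusted p = 0.221, edgeR) and -0.72 ± 0.24 (adjusted p = 0.0757, edgeR). In CPM the IMQ/GW3965 libraries had 276, 447 and 454 for Urah, so replicate 3 was the highest on that scale. Urah overlaps genes on the opposite strand, and whether the counting used strand is not given in the sources used here. Urad had 0 counts in all 12 libraries, and Allc 1 count in 1 IMQ/Troglitazone library and 0 elsewhere.

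**Figure D4:**
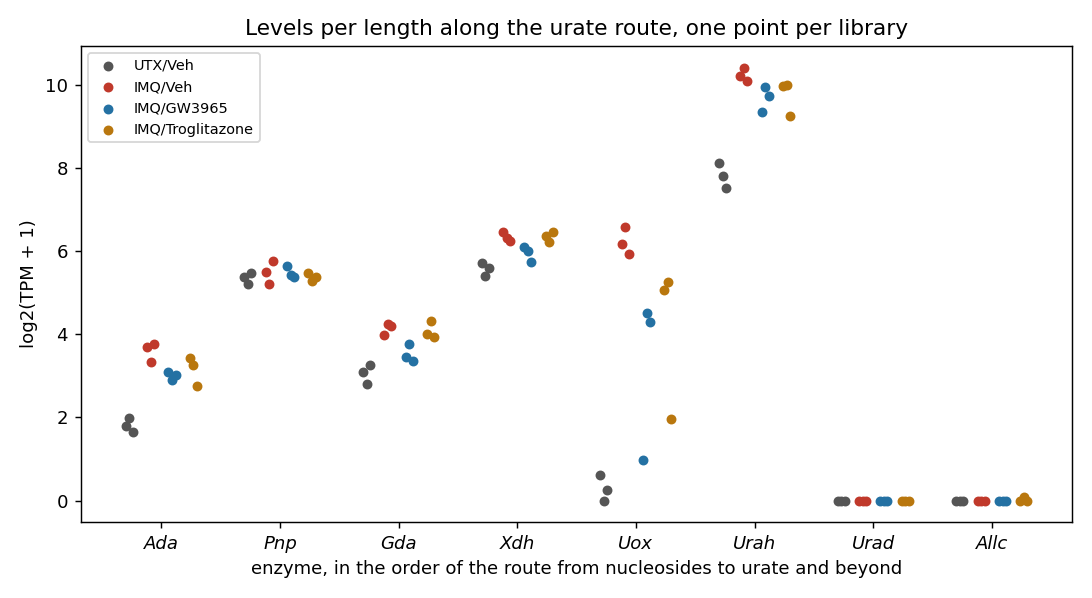
Level per length, as log2(TPM + 1), of enzymes in the order of the route, with 1 point per library and colours for the 4 groups. On this log2 axis Uox spans the largest range of the 8 genes, from 0 to 94.2 TPM, Urah is highest in every group, and Urad and Allc lie at or near 0.

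The length that RSEM assigns to a gene is the mean of its transcripts' lengths weighted by their estimated share, so a shift of it marks a shift of estimated transcript use. For Uox, whose annotated transcripts run from 448 to 2737 bases, it was 2236, 2436 and 2148 bases in IMQ/Veh, 1642, 2109 and 1855 in IMQ/GW3965, and 1880, 1638 and 1334 in IMQ/Troglitazone. All agonist libraries were shorter than all IMQ/Veh libraries. The shortest of each agonist group rested on few counts, 24 in IMQ/GW3965 replicate 1 and 55 in IMQ/Troglitazone replicate 3. These lengths do not tell the retained-intron form of 2364 bases from a mix with the coding form of 2737 bases. In UTX/Veh skin the Uox length was 979 and 948 bases in the libraries with 6 and 2 counts, which are too few to weigh transcripts. It was 1303 in the library with 0, where it is the plain mean. For Xdh it was 3909 to 4171 bases in UTX/Veh, 3330 to 3712 in IMQ/Veh, 3262 to 3555 in IMQ/GW3965 and 3980 to 4312 in IMQ/Troglitazone, so that troglitazone libraries were longer than both other imiquimod groups without overlap. With 3 libraries against 3, an exact two-sided permutation test cannot go below p = 0.10, which 8 of the 33 length comparisons among the 6 members reached; the smallest Benjamini-Hochberg adjusted p was 0.412.

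**Figure D5:**
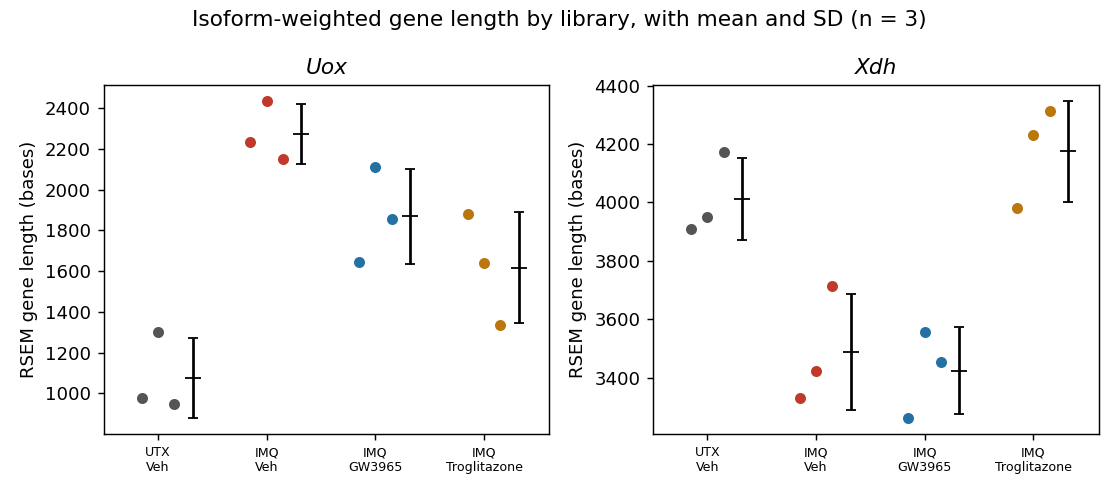
Isoform-weighted gene length of Uox and Xdh in bases (axes not starting at 0) by library, with mean and SD (n = 3). Uox is shorter in each agonist library than in each IMQ/Veh library, and Xdh is longer in each IMQ/Troglitazone library (3980 to 4312 bases) than in each IMQ/Veh or IMQ/GW3965 library.

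Around these 6 enzymes, 9 lists of other nucleotide genes held 103 genes, of which 88 were tested. In IMQ/Veh against UTX/Veh skin 35 rose and 23 fell, or 65.9% of the 88. Of all tested genes 61.9% were called there, 33% higher and 28.9% lower. The counts of each list below are to be read against these shares. Under GW3965 8 rose and 1 fell (3.71% and 2.88% of all tested genes), and under troglitazone 5 rose and 5 fell (4.69% and 4.65%). Between the agonists edgeR called 0 of 88, where 1.86% of all tested genes were called. Of the 88, 7 had an unadjusted edgeR p under 0.05, as had 2745 of all 17130 tested genes. DESeq2 called 2 of the list genes and limma-voom 0. The agonist counts ran from 0 without IMQ/Veh replicate 1 to 27 (GW3965) and 23 (troglitazone) without IMQ/Veh replicate 3, and none of the 9 and 10 called genes stayed called in every alternative.

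Among 21 other genes of purine breakdown, 17 were tested, of which 5 rose and 5 fell in IMQ/Veh skin (median log2 0.18, against 0.01 over all tested genes). Besides Urah, Samhd1, which cleaves deoxynucleotide triphosphates, rose by 1.62 ± 0.21 (log2, SE; adjusted p = 5.36e-05, edgeR). Ampd1, the AMP deaminase of skeletal muscle, fell by 2.39 (SE 0.35; adjusted p = 0.000138, edgeR), and Gmpr, GMP reductase, by 1.85 (SE 0.33; adjusted p = 0.000492, edgeR). All 9 skeletal muscle markers (such as Actn3 and Ckm) fell in the same comparison, their sum running from 11968 to 13869 CPM in UTX/Veh, from 1514 to 5841 in IMQ/Veh, from 6482 to 9394 in IMQ/GW3965 and from 4832 to 7479 in IMQ/Troglitazone; the part of muscle in these results was not tested. Under GW3965 4 genes of this list rose: Ampd1 (1.48 ± 0.35), and the 5'-nucleotidases Nt5c3 (0.77 ± 0.16), Nt5c2 (0.47 ± 0.11) and Nt5c3b (0.43 ± 0.10), with adjusted p of 0.0207 to 0.0317 in edgeR. Under troglitazone Nt5c2 rose (0.47 ± 0.11; adjusted p = 0.0283, edgeR) and Itpa, which clears inosine triphosphate, fell by 0.42 (SE 0.10; adjusted p = 0.0320, edgeR).

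The molybdenum cofactor serves Xdh and the aldehyde oxidases. Of 9 genes tested, 5 rose and 1 fell in IMQ/Veh skin. Aox4 rose most, from 27.6 ± 6.84 to 278 ± 38.9 CPM (SD, n = 3), by 3.33 ± 0.22 (log2, SE; adjusted p = 8.3e-07, edgeR), and was at 273 ± 68.8 and 318 ± 8.59 CPM under the agonists (SD, n = 3). Aox1, its relative, fell by 1.93 (SE 0.34; adjusted p = 0.00047, edgeR) and rose under troglitazone by 1.18 ± 0.34 (adjusted p = 0.0498, edgeR). Mocs3 (1.02 ± 0.22) and Mocos (0.66 ± 0.12), both of cofactor synthesis and sulfuration, rose in IMQ/Veh skin (adjusted p = 0.00202 and 0.000764, edgeR). The aldehyde oxidase genes are close relatives, so that shared reads are possible.

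Salvage enzymes return bases and nucleosides to nucleotides. Of 6 tested, 4 rose and 2 fell in IMQ/Veh skin, where 33% of all tested genes rose and 28.9% fell. Aprt rose by 1.75 ± 0.14 (adjusted p = 2.36e-06, edgeR), Hprt, which competes with Xdh for hypoxanthine, by 1.60 ± 0.11 (adjusted p = 1.26e-06, edgeR), and Dck by 1.0 ± 0.11 (adjusted p = 1.44e-05, edgeR). Hprt had 35.0 ± 2.71 CPM in UTX/Veh, 106 ± 15.3 in IMQ/Veh, 87.0 ± 8.41 in IMQ/GW3965 and 76.9 ± 2.79 in IMQ/Troglitazone (SD, n = 3). Under troglitazone Aprt fell by 0.52 (SE 0.13; adjusted p = 0.0370, edgeR) and Hprt by 0.46 (SE 0.11; adjusted p = 0.0284, edgeR). These calls were lost in 8 (Aprt) and 7 (Hprt) of 22 alternatives. Under GW3965 the differences were -0.26 ± 0.13 for Aprt (adjusted p = 0.242, edgeR) and -0.28 ± 0.11 for Hprt (adjusted p = 0.131, edgeR), each of which passed without IMQ/Veh replicate 3 (adjusted p = 0.0438 and 0.0219). Dck differed by -0.34 ± 0.10 under GW3965 (adjusted p = 0.0709, edgeR) and passed with DESeq2 (adjusted p = 0.0311).

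Of 14 genes of purine synthesis, 8 rose and 1 fell in IMQ/Veh skin. Impdh1 (1.63 ± 0.20) and Impdh2 (1.15 ± 0.17), the gateway to guanine nucleotides, and Gart (0.90 ± 0.17), a synthesis enzyme, rose, with edgeR adjusted p of 3.37e-05, 0.00012 and 0.000792. The gene that fell was Adssl1, the muscle form of adenylosuccinate synthase, by 1.79 (SE 0.35; adjusted p = 0.000929, edgeR); under GW3965 it rose by 1.31 ± 0.35 (adjusted p = 0.0450, edgeR), and the muscle sums above moved with it. Of 14 pyrimidine genes tested, 5 rose and 3 fell in IMQ/Veh skin. The rising ones included the kinases Uck2 (1.47 ± 0.12) and Tk1 (1.42 ± 0.16) and the synthesis enzyme Cad (1.32 ± 0.26), with adjusted p of 3.44e-06, 2.3e-05 and 0.000981 in edgeR. Dpyd, which starts uracil breakdown after Upp1, fell by 1.97 (SE 0.30; adjusted p = 0.000162, edgeR) and rose under GW3965 by 1.19 ± 0.30 (adjusted p = 0.0385, edgeR). The 8 proliferation markers tested all rose in IMQ/Veh skin, from a sum of 179 to 238 CPM to one of 740 to 1093 CPM, and their part in the synthesis and salvage counts was not tested.

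Outside the cell, 7 of 15 nucleotide enzymes and nucleoside transporters rose and 4 fell in IMQ/Veh skin. Entpd3, an ectonucleotidase, rose by 2.79 ± 0.41 (adjusted p = 0.000135, edgeR) and fell under both agonists, by 1.87 under GW3965 (SE 0.39; adjusted p = 0.0226, edgeR) and by 1.77 under troglitazone (SE 0.38; adjusted p = 0.0204, edgeR). Its level was low, at 0.598 ± 0.306 CPM in UTX/Veh and 4.21 ± 0.315 in IMQ/Veh (SD, n = 3). Dpp4, which binds adenosine deaminase in other species and is a peptidase, rose by 1.73 ± 0.26 (adjusted p = 0.000164, edgeR), and the concentrative transporter Slc28a3 by 1.73 ± 0.18 (adjusted p = 1.27e-05, edgeR), whereas Slc28a1 fell by 3.19 (SE 0.65; adjusted p = 0.00126, edgeR) from a level of 1.35 CPM. The equilibrative transporter Slc29a1 fell in IMQ/Veh skin by 0.50 (SE 0.12; adjusted p = 0.00338, edgeR) and rose under GW3965 (0.61 ± 0.12; adjusted p = 0.0191, edgeR) and troglitazone (0.51 ± 0.12; adjusted p = 0.0261, edgeR). Entpd2, another ectonucleotidase, fell by 1.42 (SE 0.17; adjusted p = 3.85e-05, edgeR) and rose under troglitazone (0.61 ± 0.17; adjusted p = 0.0496, edgeR), a call lost in 14 of 22 alternatives.

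Of the 4 adenosine receptors, Adora1 fell by 0.73 (SE 0.18; adjusted p = 0.00431, edgeR) and Adora3 by 0.75 (SE 0.21; adjusted p = 0.00856, edgeR) in IMQ/Veh skin. Of 8 urate transporters only 3 were expressed enough to test. Slc16a9 fell by 0.67 (SE 0.13; adjusted p = 0.0011, edgeR) and fell further under troglitazone by 0.51 (SE 0.14; adjusted p = 0.0405, edgeR), a call lost in 14 of 22 alternatives. Abcg2, a urate exporter, fell by 0.33 (SE 0.13; adjusted p = 0.0413, edgeR) in IMQ/Veh skin, a call lost in 7 of 22 alternatives, and rose under troglitazone by 0.46 ± 0.13 (adjusted p = 0.0470, edgeR), a call lost in 14 of 22. Among peroxisomal oxidases and catalase, 6 were tested, of which 1 rose and 3 fell in IMQ/Veh skin. Catalase (Cat), which removes the hydrogen peroxide that Uox and other peroxisomal oxidases release, fell by 1.07 (SE 0.20; adjusted p = 0.000769, edgeR) from 153 ± 12.9 to 72.9 ± 20.5 CPM (SD, n = 3), while Uox was higher in the same libraries. It was at 104 ± 12.5 and 108 ± 26.5 CPM under GW3965 and troglitazone (SD, n = 3), with adjusted p of 0.134 and 0.0899 against IMQ/Veh in edgeR. Without IMQ/Veh replicate 3 both passed (adjusted p = 0.0134 and 0.0084), and with DESeq2 the troglitazone difference passed. Acox2, a peroxisomal oxidase of bile acid and branched-chain lipid breakdown, rose under GW3965 by 0.93 ± 0.19 (adjusted p = 0.0216, edgeR).

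Each further member had its own closest companions in log2 CPM over the 12 libraries. Upp1 was followed by Timp1 (Pearson r = 0.989) and Fam49b (r = 0.981), Ada by Scamp2 (r = 0.989) and Tada1 (r = 0.988), Gda by Ppp1r15b (r = 0.983) and Irak4 (r = 0.982), Pnp by Cd63 (r = 0.980) and Gabarap (r = 0.969), and Xdh by Zfp92 (r = 0.971) and Rbbp6 (r = 0.968). None of these genes was named for more than 1 member. Timp1, an inhibitor of matrix metalloproteinases, fell under both agonists as Upp1 did, by 1.66 under GW3965 (SE 0.41; adjusted p = 0.0373, edgeR) and by 1.69 under troglitazone (SE 0.41; adjusted p = 0.0304, edgeR). Because Timp1 was picked for its correlation with Upp1 in these same libraries, its like fall is not separate evidence. Within the 9 imiquimod libraries the r were 0.985 for Upp1 with Timp1 and 0.806 for Xdh with Zfp92.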

How the data were processed

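Ear skin RNA (Illumina TruSeq stranded mRNA libraries, per the labels' protocols) was measured in 12 libraries, 3 per group. Per the submitters' processing notes, the tools were STAR 2.7.3a, RSEM 1.3.3, Trim Galore and FastQC and the builds GRCm38 and mm10; their annotation release and strand setting were not given in the sources used. The values the authors deposited are RSEM expected counts per gene (estimated, not whole), TPM (length-scaled by the authors) and the isoform-weighted gene length, per the file headers. Gene symbols came from GENCODE M21, which named 52083 of 55416 identifiers.

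After rounding to integers, expected counts were fitted with edgeR 4.0.16 (R 4.3.3): filterByExpr by group, TMM scaling, 1 quasi-likelihood fit over all 12 libraries (17130 genes; 8 residual degrees of freedom; common dispersion 0.0306), Benjamini-Hochberg adjusted p under 0.05 over all genes. Library totals were 18242074 to 25641602 counts, and 1 feature took 11.6% of the counts of IMQ/GW3965 replicate 3. The TPM of that library ran low against its CPM: Krt5 had the highest CPM of its group there (9065) and the lowest TPM (4584). TPM levels given for IMQ/GW3965 carry this limit. No pair of replicates agreed within sampling noise. Counts were simulated for IMQ/GW3965 against IMQ/Veh (16935 genes), with 100 genes changed by 1 and 100 by 2 on the log2 scale. The fit recovered 77% and 92% of these, and 5.06% of its calls were false. All other genes had a common mean in every group, and no library was made an outlier. These shares may therefore not hold for the measured libraries. Exact permutation tests used scipy 1.17.1. DESeq2 1.42.0 and limma-voom (limma 3.58.1) were alternatives, as were other scalings, filters, fits of 2 groups, lane (a field of the deposited names that the labels do not explain), replicate number and the omission of each library. In replicate order the lane field was L009, L001 and L009 in IMQ/Veh, and L001, L009 and L001 in each agonist group. Lane was thus partly confounded with the agonist comparisons against IMQ/Veh.

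The members and the gene lists were chosen with earlier results of these data known. Genes named are the 6 members, up to 4 called genes of each list and comparison by size of change, the most closely correlated genes, the neighbours of Uox, and Pnp2 and Upp2. The sums, lists and figures use TMM-scaled CPM unless TPM is named.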

Additional observations from a re-analysis of the deposited data

How the results depend on the processing

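The log2 changes of single genes kept their direction in every one of 22 alternatives where they were called, with 0 reversals. Over all 4214 single-gene alternative values, whether called in the main fit or not, 225 lost and 77 gained the call. None of the 9 (GW3965) and 10 (troglitazone) named list genes called against IMQ/Veh kept the call in every alternative. Of 36 named list genes called in IMQ/Veh against UTX/Veh skin, 34 kept the call in every alternative. The fitted Uox difference there (10.13) was 11.40 without UTX/Veh replicate 1, since the group holds few counts. The low Uox and Upp1 counts in UTX/Veh skin limit the precision of their ratios. For GW3965 against IMQ/Veh (1129 genes called), DESeq2 called 2164 genes, the lane covariate 549 and a fit of the 2 groups alone 102, and leaving out 1 library gave 105 to 3645; members called were 1 with lane, 1 with lane and replicate block and 0 with 2 groups (0 to 3 on leaving out a library), and list genes 16, 5 and 0 with DESeq2, lane and 2 groups (0 to 27). For troglitazone against IMQ/Veh (1600), DESeq2 gave 2537, lane 1009, lane with replicate block 991 and 2 groups 0 (162 to 4460); members were 2 with DESeq2, 2 with limma-voom and 0 with 2 groups (0 to 3), and list genes 19, 5, 6 and 0 with DESeq2, lane, lane with block and 2 groups (0 to 23). For troglitazone against GW3965 (319), the counts were 912 with DESeq2, 140 with no filter, 131 with the replicate block, 26 with lane and block and 9 with 2 groups (0 to 692; 0 without UTX/Veh replicate 1), with 1 member and 2 list genes by DESeq2 (0 to 1 each on leaving out a library). In IMQ/Veh against UTX/Veh skin leaving out a library gave 9342 to 11280 genes, with 29 to 37 list genes higher and 20 to 24 lower. Replicate numbers did not pair the samples: same-numbered libraries correlated at -0.22 to 0.31 and others at -0.30 to 0.35 in their deviations from group means, and with the replicate block GW3965 still gave 3 called members and troglitazone 1. The causes of these shifts were not tested.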
